A study of Mus musculus with 4 samples.

Results

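Pericytes of the mouse heart were picked out of a single-cell RNA sequencing experiment on cardiac interstitial cells, the cells left after cardiomyocytes are strained off. They made up 453 of the 38910 cells that passed the quality limits, or 1.16% (exact 95% interval 1.06 to 1.28%). A barcode counted as a pericyte if it held at least 4 molecules (UMIs) of Rgs5, Kcnj8, Abcc9 and Vtn together, at most 1 of Myh11, and none of Pecam1, Cdh5, Pdgfra or Ptprc. It also had to hold at least 500 UMIs and 250 genes, with at most 15% of its UMIs from mitochondrial genes. The members were therefore chosen on measured transcripts, and the levels of these genes are given as a description of the choice.

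Hearts were taken 1 month after stroke or a control condition, with 2 control and 2 stroke samples, and every mouse, controls included, was of the strain Ccr2creERT2-Ai14. In that strain an inducible Cre expressed from Ccr2, a chemokine receptor of monocytes, switches on the red reporter tdTomato. The labels give neither age nor sex, and do not say how many hearts went into a sample or whether the Cre was induced. Hearts were cut up and digested for 30 min, strained, cleared of red and dead cells, sorted for live nucleated cells and put through the 10x Genomics 3′ protocol. The deposited matrix pools 4 libraries, told apart by the number that ends each barcode, and nothing in the sources used here ties those numbers to the samples. Stroke and control pericytes were therefore not compared. Values are given for libraries 1, 2, 3 and 4 in that order, and cells are not counted as replicates. The 4 libraries held 31955157 to 45834980 UMIs each. Of the barcode sequences, 161 occurred in more than 1 library, and 0 of them belonged to pericytes.

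Pericytes sit in the basement membrane of capillaries, wrapped around the endothelial tube, and belong with vascular smooth muscle to the mural cells. Endothelial cells attract and keep them through PDGF-B, which is read by the receptor PDGFRB, and through Notch ligands that are read by NOTCH3. In the heart they carry an ATP-sensitive potassium channel made of Kir6.1, encoded by Kcnj8, and SUR2, encoded by Abcc9, which couples the metabolic state of the tissue to membrane potential. Smooth muscle cells of arterioles share much of this programme and add a dense contractile apparatus, of which the myosin heavy chain Myh11 is the usual marker.

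Kcnj8 (GRCm38, chromosome 6, 142564837 to 142571614) and Abcc9 (chromosome 6, 142587862 to 142702315) are neighbours on the minus strand, so the 2 parts of the channel that defined the pericytes lie side by side. The sequence upstream of each start site is shown with that of Myl9, a myosin light chain gene of the contractile programme that was low in the pericytes. Each covers bases 250 to 51 before the start in RefSeq annotation of GRCm38.p6, at chr6:142571665-142571864 (minus), chr6:142702325-142702524 (minus) and chr2:156775214-156775413 (plus). Capitals mark TGGGAA, the core that the Notch effector RBPJ binds, in Abcc9, and the CArG box, the element that serum response factor binds, in Myl9.
Kcnj8: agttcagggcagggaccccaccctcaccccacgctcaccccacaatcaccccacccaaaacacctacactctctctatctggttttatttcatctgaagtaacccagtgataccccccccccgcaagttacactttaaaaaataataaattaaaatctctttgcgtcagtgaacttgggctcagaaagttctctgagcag
Abcc9: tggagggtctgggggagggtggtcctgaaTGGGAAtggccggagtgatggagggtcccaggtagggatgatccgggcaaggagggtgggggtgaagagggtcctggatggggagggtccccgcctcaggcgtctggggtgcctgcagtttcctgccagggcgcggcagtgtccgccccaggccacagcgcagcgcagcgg
Myl9: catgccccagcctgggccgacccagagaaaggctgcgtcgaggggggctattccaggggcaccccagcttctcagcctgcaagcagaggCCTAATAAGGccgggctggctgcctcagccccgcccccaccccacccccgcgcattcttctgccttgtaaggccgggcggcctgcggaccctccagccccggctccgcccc
TGGGAA, searched on both strands, occurred in 21.6% of the 32851 windows of 250 bases before annotated starts. It occurred in 8 of the 20 windows found for 14 of 21 pericyte marker genes (Abcc9, Vtn, Art3, Colec11, P2ry14, Steap4, Ebf1 and Tbx18), and in 4 of the 20 windows found for contractile genes. The CArG box occurred in 1.47% of all windows, in 0 of the 20 pericyte windows and in 3 of the 20 contractile windows (Myl9, Myl6 and Srf). These matches describe the letters only.

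The rule genes were strong in every library. Rgs5, which encodes a brake on G protein signalling, stood at 6830, 5555, 7359 and 6869 CPM (UMIs of the gene per 1000000 UMIs of the pericytes). Abcc9 stood at 3888, 3263, 4650 and 4485 CPM, and Kcnj8 at 1867, 1334, 2015 and 1862 CPM. Vtn, which encodes the adhesive protein vitronectin, stood at 1318, 977, 1280 and 1817 CPM. Library 2 was the lowest of the 4 for each of these genes. At least 1 UMI of Rgs5 was found in 96.5% of the members, of Abcc9 in 94.7%, of Kcnj8 in 81.2% and of Vtn in 80.4%. All 4 transcripts were found together in 318 members (70.2%), and the median member held 31 UMIs of them.

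The gates removed cells in steps. Of 848 cells with at least 4 marker UMIs, 651 held no Pecam1 or Cdh5, 537 of these held no Pdgfra, 527 of these held no Ptprc, and 453 of these held at most 1 Myh11 UMI. The 32 members just inside the threshold, with 4 or 5 marker UMIs, had 114 CPM of Notch3 and 243 CPM of the PDGF receptor Pdgfrb. The 22 cells just outside, with 3 marker UMIs, had 135 and 98.3 CPM. Members with 21 to 40 marker UMIs had 1061 and 1866 CPM. In the low bin, 22 of the 32 members carried at least 5 UMIs of the fibroblast transcripts Dcn and Gsn.

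Libraries differed in the number of members. Library 1 gave 237 (2.41% of its cells, exact 95% interval 2.11 to 2.73%), library 2 gave 54 (0.548%, 0.412 to 0.714%), library 3 gave 51 (0.579%, 0.431 to 0.760%) and library 4 gave 111 (1.07%, 0.879 to 1.28%). The share in library 1 lay above the intervals of the other 3, and without library 1 the share of pericytes was 0.743%. Intervals here and below cover counting error only, not variation between hearts.

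Smooth muscle cells and fibroblasts were the cells set beside the pericytes. Smooth muscle cells held at least 2 Myh11 UMIs, and fibroblasts held at least 1 Pdgfra UMI and 5 of Dcn and Gsn, with the gates against other lineages put on both. There were 89 smooth muscle cells (52, 6, 6 and 25 by library) and 5759 fibroblasts. Endothelial cells, 15565 in number, were used for levels only. The median pericyte held 2048 UMIs, against 2500 in smooth muscle cells, 6625 in fibroblasts and 2649 in endothelial cells. The RNA of the pericytes was rich in the nuclear transcript Malat1, at 63719 CPM against 37350 in smooth muscle cells and 24683 in fibroblasts. Mitochondrial genes gave 3.60% of pericyte UMIs, 5.99% of smooth muscle and 2.57% of fibroblast UMIs. The part of these differences in the results was not tested.

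A gene was called higher or lower where the ratio of CPM, with 5 CPM added to each, was at least 2-fold over all libraries and pointed the same way in each of the 4. Genes at 20 CPM or more in either class were compared, without the rule genes. Against smooth muscle cells, 701 of 7868 genes (8.91%) were called higher in pericytes and 167 (2.12%) lower. Against fibroblasts, 817 of 7899 genes (10.3%) were called higher and 734 (9.29%) lower. Each molecule is counted once near its 3′ end, so CPM are not scaled by gene length. Where the 95% interval of the ratio also had to lie on 1 side of 1, 552 genes were higher and 164 lower than in smooth muscle cells. So part of the 701 higher calls lay within counting error. Against fibroblasts the counts stayed at 817 and 734. The counts against smooth muscle cells moved with the settings. Where libraries were left out, the same direction was asked only of those that remained, a weaker rule than with all 4. Libraries 2 and 3 held 6 such cells each, and without these libraries 1253 genes were higher and 598 lower. Leaving out 1 library gave 1134 higher and 253 lower without library 1, 333 lower without library 2 and 251 lower without library 3. With smooth muscle cells taken by Myh11 alone, 456 were higher and 349 lower. Against fibroblasts, scaling by the trimmed mean of M values in place of totals shifted every log2 ratio by -0.25, to 645 genes higher and 967 lower. There are no tests behind these calls, since the table counts as 1 pooled sample.

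Pericyte markers outside the rule were high over the pooled members. Their list was chosen with earlier results of these data known, so the counts describe the members and are no test of the label. All 17 of these markers were called higher in pericytes than in fibroblasts, against 10.3% of all genes. Compared with smooth muscle cells 6 of 17 were higher and 0 lower, against 8.91 and 2.12% of all genes. Notch3 stood at 792, 785, 1129 and 1025 CPM, against 17.5 in fibroblasts, a ratio of 49.98 (95% interval 45.3 to 55.2). In smooth muscle cells it was higher, at 1198 CPM, and the ratio of 0.731 (0.643 to 0.833) was not past the threshold. Notch3 thus marked both mural classes in every library and separated them from fibroblasts. Pdgfrb stood at 1394, 1232, 1756 and 1899 CPM, 21.9 times the fibroblast level and 2.38 times (2.03 to 2.80) that of smooth muscle cells.

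Other markers called higher in pericytes than in smooth muscle cells included Colec11, Art3, Steap4 and P2ry14. Colec11, which encodes a secreted lectin of the complement system, stood at 1023, 696, 928 and 938 CPM. Its level in smooth muscle cells was 142 CPM, a ratio of 6.65 (4.82 to 9.46), and in fibroblasts 6.75. Steap4, a metalloreductase, stood at 966, 530, 1179 and 1071 CPM, against 213 in smooth muscle cells. Art3 had 979 CPM against 217, and P2ry14, a receptor for UDP-sugars, 261 against 59.9. In library 2, with 6 smooth muscle cells, Steap4 (530 against 520 CPM) and Art3 (747 against 743) were nearly level between the classes. Colec11 stood there at 696 against 520 CPM, and P2ry14 had 0 CPM in the smooth muscle cells.

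The remaining markers did not separate the mural classes at 2-fold. Higd1b, a mitochondrial protein of the hypoxia-inducible family, stood at 502, 441, 711 and 549 CPM. It was 594 times (422 to 861) the fibroblast level of 0.885 CPM, and smooth muscle cells had 457 CPM. Cspg4, which encodes the proteoglycan NG2, stood at 408, 345, 410 and 412 CPM, with 240 in smooth muscle cells and 1.62 in fibroblasts. Rgs4 had 346 CPM in pericytes and 419 in smooth muscle cells. The transcription factor Ebf1 had 2460 CPM, 2.62 times the fibroblast and 1.87 times the smooth muscle level.

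**Figure D1:**
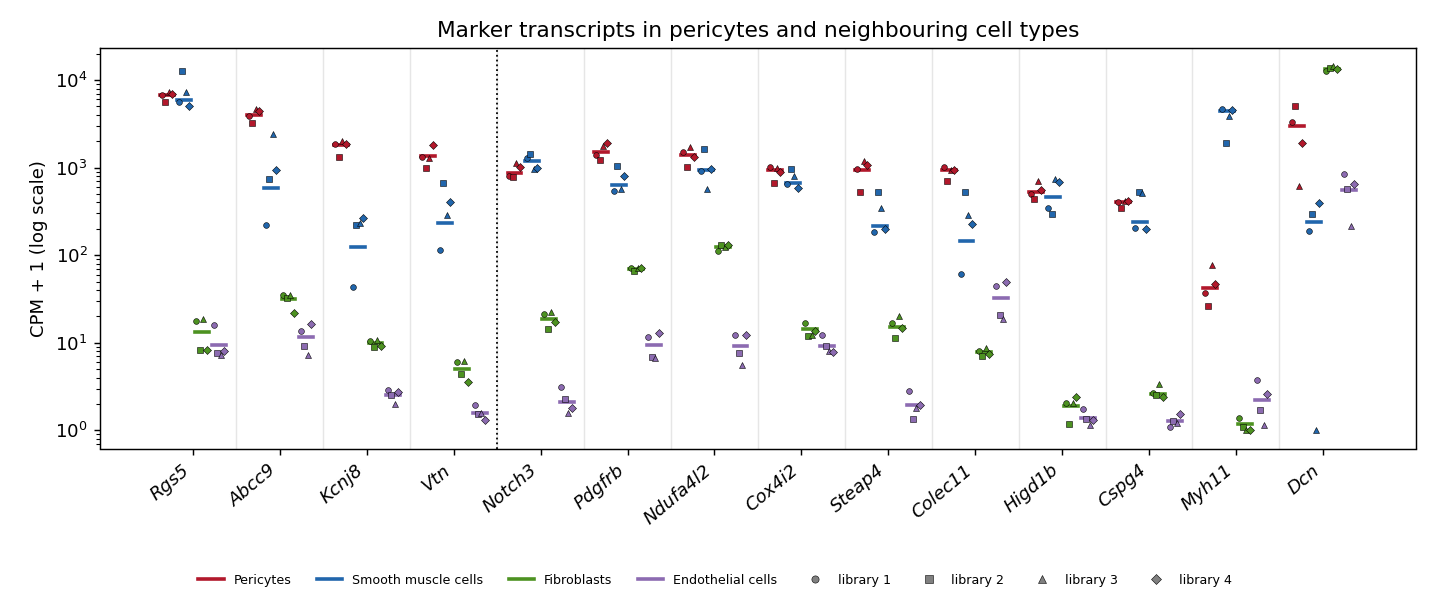
Levels of marker transcripts (CPM + 1, log axis) in pericytes, smooth muscle cells, fibroblasts and endothelial cells. Horizontal lines give the level over all cells of a class and small symbols the 4 libraries, and genes left of the dotted line, with Myh11 and Dcn at the right, were used to choose cells. Notch3 stood at 785 to 1129 CPM in the pericytes of the 4 libraries and at 17.5 CPM in fibroblasts.

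Cells were also compared at an even depth. Each cell was thinned to 1000 UMIs, which left out 48 pericytes, 1 smooth muscle cell, 26 fibroblasts and 368 endothelial cells that were shallower. Steap4 was then found in 62.0% of 405 pericytes, 17.0% of 88 smooth muscle cells and 1.34% of 5733 fibroblasts. Notch3 was found in 60.0, 56.8 and 1.78%, and Pdgfrb in 74.6, 42.0 and 6.91%. Without thinning, Notch3 was found in 75.5% of pericytes. The shares of pericytes and smooth muscle cells were close for Notch3, whose CPM was higher in smooth muscle cells, and no order is read from them. The fibroblast shares stand as the background of these genes.

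Markers of other cell types were read as whole lists. The 11 fibroblast markers outside the rule summed to 1914 CPM in pericytes (2105, 3276, 878 and 1002 by library), against 10493 in fibroblasts, and all 11 were called lower. Much of this sum lay in few members: 47 pericytes carried at least 5 UMIs of Dcn and Gsn, with 23.0% of all pericyte UMIs, 96.4% of the Dcn and 71.8% of the Col1a1 molecules, but 5.40% of the Rgs5 molecules. In the other 406 members the fibroblast markers summed to 752 CPM. Against smooth muscle cells these 406 members gave 10.3% of genes higher and 2.42% lower, and against fibroblasts 12.6% and 12.8%. Their values are given below for some genes and lists, and where none are given they may still differ. The 12 endothelial markers summed to 1602 CPM (1612, 849, 1572 and 2132), against 20556 in endothelial cells, and were led by the fatty acid carrier Fabp4 at 798 CPM. Smooth muscle cells, at 1577 CPM, carried as much. The 12 smooth muscle markers summed to 776 CPM against 16416, and leukocyte markers to 77.5 CPM with 2 of 12 at 0 UMIs. Cardiomyocyte markers summed to 49.5, Schwann cell markers to 65.4 and erythroid markers to 36.4 CPM. Epicardial markers summed to 1.87 CPM, with 4 of 6 at 0 UMIs. A doublet caller marked 4 of the 453 pericytes. The reporter transcript tdTomato stood at 31.3, 25.5, 50.2 and 9.15 CPM, near its 22.5 CPM in smooth muscle cells, and Ccr2 had 2 UMIs in all pericytes.

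Genes of the contractile apparatus were low in pericytes beside smooth muscle cells. Of 21 contractile genes compared, 15 were called lower in pericytes and 0 higher, against 2.12% of all genes called lower, with a median log2 ratio of -2.63 against 0.19 over all genes. Since Myh11 set the classes apart, a gap in genes that accompany it is not independent of the choice. Acta2, smooth muscle actin, stood at 69.5, 160, 75.3 and 59.5 CPM in pericytes. In smooth muscle cells it stood at 8455, 2676, 4817 and 8143 CPM. The ranges were far apart, and the ratio was 0.0104 (0.00826 to 0.0128). At 1000 UMIs per cell, Acta2 was found in 4.94% of pericytes (exact interval 3.04 to 7.52%), 87.5% of smooth muscle cells and 1.88% of fibroblasts. Tagln, an actin-binding protein, stood at 142, 115, 50.2 and 59.5 CPM against 4629 in smooth muscle cells. The light chain Myl9 stood at 153, 160, 176 and 146 CPM against 2408.

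Some members of the apparatus were kept at a substantial level. Mylk, the kinase that switches on smooth muscle myosin, stood at 285, 217, 318 and 279 CPM, 0.188 times (0.161 to 0.219) the smooth muscle level. It was 46.9 times the fibroblast level of 5.92 CPM. Cald1, which encodes caldesmon, stood at 1415, 1220, 1672 and 1515 CPM against 2933 in smooth muscle cells, a ratio of 0.490, and was not called without library 1 (log2 ratio -0.84). The tropomyosin Tpm2 had 400 CPM against 3506, and 5.91 times the fibroblast level. Compared with fibroblasts 12 of 17 contractile genes were called higher and 0 lower, against 10.3 and 9.29% of all genes.

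Other members were near absent. Pln, which encodes the calcium pump regulator phospholamban, had 2 UMIs in all pericytes (1.87 CPM) against 375 CPM in smooth muscle cells. Cnn1, calponin, had 0 UMIs, which allows up to 2.80 CPM for a count of 3, so it was at least 54.8-fold lower than its 154 CPM in smooth muscle cells. Actg2 also had 0 UMIs and was at least 20.05-fold lower. Myocd, the coactivator that drives the contractile genes, had 5.60 CPM against 187, without pointing the same way in all 4 libraries. Lmod1 had 22.4 CPM against 629. The other genes named for the lowest ratios were Sorbs2, at 7.47 CPM against 618, Mustn1, at 26.2 against 1184, Nrip2 and Asb2.

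Several ion channel genes were lower in pericytes than in smooth muscle cells. Of 19 genes compared, 1 was called higher and 6 lower, against 8.91 and 2.12% of all genes. Trpc6, a calcium-permeable cation channel, was among the lower ones, at 20.8, 6.39, 41.8 and 18.3 CPM against 131 in smooth muscle cells, a ratio of 0.157 (0.0876 to 0.275). The potassium channel genes Kcna5 (23.4 against 105 CPM) and Kcnmb1 (29.0 against 78.7, not called without library 1, log2 ratio -0.83) were lower, as was the calcium channel subunit Cacnb2 (372 against 809). Lower too were the calcium pump Atp2a2, at 220 against 742 CPM, and the sodium-calcium exchanger Slc8a1, at 465 against 1521.

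Other channel genes were not called against smooth muscle cells, Cacna1c and Ano1 among them. Cacna1c, the L-type calcium channel, stood at 594, 511, 928 and 755 CPM, with 1008 in smooth muscle cells and 51.1 in fibroblasts. Ano1, a calcium-activated chloride channel, stood at 438, 377, 753 and 426 CPM, with 584 in smooth muscle cells and 1.97 in fibroblasts. Compared with fibroblasts 10 of 15 channel genes were called higher and 0 lower, against 10.3 and 9.29% of all genes. The 2 channel parts of the rule, given as description, differed between the mural classes: smooth muscle cells had 581 CPM of Abcc9 and 124 of Kcnj8, against 4004 and 1805 in pericytes. Their usual partners elsewhere were not found, with 0 UMIs of Kcnj11 and 0 of Abcc8 beside 1932 UMIs of Kcnj8 and 4286 of Abcc9.

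Among the receptors for vasoactive signals, 7 of 11 compared were called higher in pericytes than in fibroblasts and 1 lower, against 10.3 and 9.29% of all genes. Of the 31 genes, 6 had 0 UMIs in the pericytes. Of 9 compared with smooth muscle cells 3 were called higher (Ednrb, P2ry14 and Ptgir) and 0 lower, against 8.91% of all genes called higher. Ednra, the endothelin A receptor, stood at 353, 230, 401 and 439 CPM. It was 36.7 times the fibroblast level and 1.87 times (1.40 to 2.56) that of smooth muscle cells. Ednrb, the endothelin B receptor, stood at 83.4, 134, 276 and 238 CPM, lower in library 1 than in the other 3. Smooth muscle cells had 14.98 CPM, a ratio of 9.60 with a wide interval (3.67 to 35.7), fibroblasts 1.11 and endothelial cells 164. The angiotensin receptor Agtr1a stood at 76.4, 44.7, 83.6 and 105 CPM, 12.6 times the fibroblast level. Ptgir, the prostacyclin receptor, had 48.6 CPM against 11.2 in smooth muscle cells. In the 406 members low in Dcn and Gsn, 5 of 9 were called higher than in smooth muscle cells, and 7 of 11 higher and 2 lower than in fibroblasts.

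Genes of the nitric oxide relay stood close to their levels in smooth muscle cells. Nitric oxide activates soluble guanylate cyclase, whose product cyclic GMP acts through the kinase encoded by Prkg1. Prkg1 stood at 3192, 2899, 4466 and 3565 CPM, 0.993 times (0.923 to 1.07) the smooth muscle level and 9.50 times that of fibroblasts. The cyclase subunits Gucy1a1 and Gucy1b1 had 1044 and 927 CPM, against 1408 and 974 in smooth muscle cells and 87.3 and 52.6 in fibroblasts. Of 18 genes of this group compared with smooth muscle cells, 2 were called higher (Rgs3 and Pde4d) and 0 lower. This was near the 8.91 and 2.12% of all genes. Compared with fibroblasts 10 of 18 were higher and 0 lower, against 10.3 and 9.29% of all genes.

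**Figure D2:**
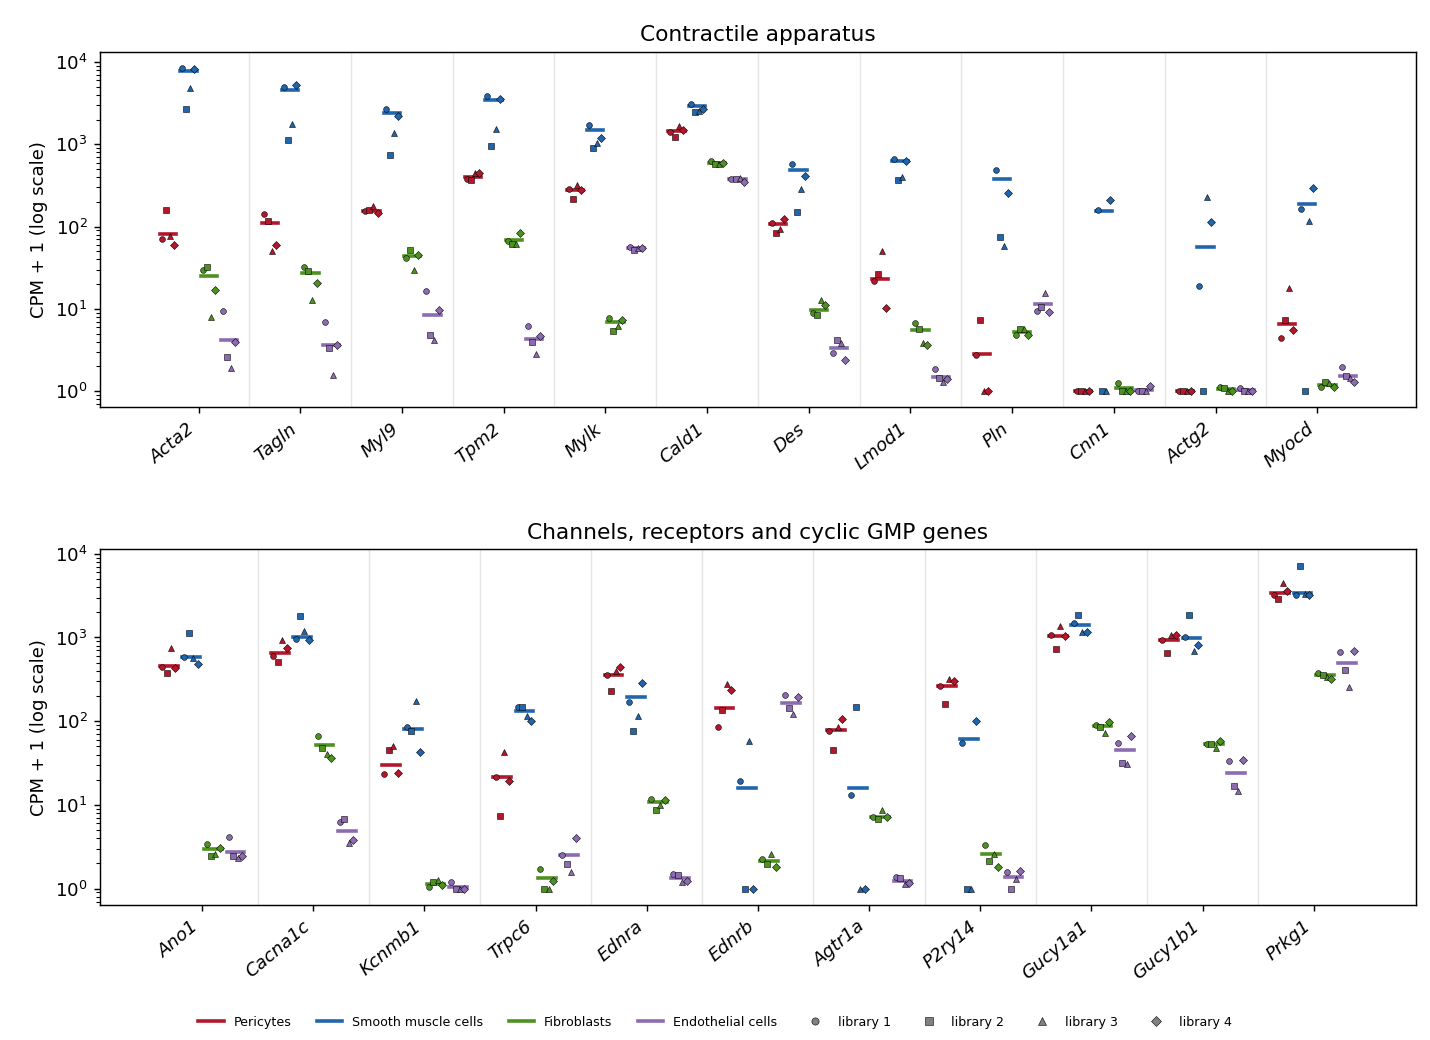
Levels (CPM + 1, log axis) of contractile genes in the upper panel and of channel, receptor and cyclic GMP genes in the lower panel, in the 4 cell classes. Horizontal lines give the level over all cells and small symbols the 4 libraries. Acta2 stood at 59.5 to 160 CPM in pericytes and at 2676 to 8455 CPM in smooth muscle cells, whereas Prkg1 differed little between them, at 3367 and 3390 CPM.

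Genes of the signals between endothelium and mural cells were split between the cell types. Pdgfb, the ligand, had 227 CPM in endothelial cells and 8.41 in pericytes, where its receptor Pdgfrb was high. Tek, the endothelial angiopoietin receptor, had 457 CPM in endothelial cells and 29.9 in pericytes. Its ligand Angpt1 had 27.1 CPM over all pericytes and 0 UMIs in the 406 members low in Dcn and Gsn, against 117 CPM in fibroblasts. S1pr3, a receptor for sphingosine 1-phosphate, stood at 403, 313, 418 and 412 CPM, 2.06 times the smooth muscle and 11.6 times the fibroblast level. Without library 1 the log2 ratio to smooth muscle cells was 0.57 for S1pr3 and 0.24 for Tgfbr2, and neither was called. Compared with smooth muscle cells 5 of 28 genes were called higher (Pdgfrb, Eng, Acvrl1, Tgfbr2 and S1pr3) and 2 lower (Pdgfd and Nrarp). Over all genes 8.91% were higher and 2.12% lower. Eng, Acvrl1 and Tgfbr2 encode receptors of the TGF-beta family that are also typical of endothelium, and stood at 121, 51.4 and 120 CPM. Eng and Acvrl1 pointed the other way when smooth muscle cells were chosen by Myh11 alone. The Notch target Heyl had 212 CPM, 2.51 times the fibroblast level.

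Basement membrane genes were called higher than in smooth muscle cells more often than lower, and against fibroblasts more often lower than higher. Of 17 compared with smooth muscle cells 7 were called higher and 2 lower, with 8.91 and 2.12% over all genes. Of 16 compared with fibroblasts 1 was higher and 6 lower, with 10.3 and 9.29% over all genes. Col4a1, a chain of collagen IV, stood at 865, 504, 903 and 988 CPM. Smooth muscle cells had 322 CPM, a ratio of 2.61 (2.09 to 3.30), and fibroblasts 584. Without library 1 it was just under the threshold, at a log2 ratio of 0.97. Its partner Col4a2 had 500 CPM and was the 1 gene called higher against fibroblasts, at 2.46 times (2.25 to 2.68). Lama2, a laminin chain, stood at 1164, 1258, 1647 and 1712 CPM, 3.23 times the smooth muscle level and 1.20 times that of fibroblasts. Nid1, which links laminin to collagen IV, had 260 CPM, between 48.7 in smooth muscle cells and 609 in fibroblasts.

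Interstitial matrix genes were called lower in pericytes than in fibroblasts more often than higher, with Postn and Fap the higher ones. Of 32 genes 15 were called lower in pericytes than in fibroblasts, against 9.29% of all genes, 2 higher, against 10.3%, and the other 15 were not called. The higher ones are genes usually read as signs of an activated stromal cell. Postn, which encodes periostin, stood at 778, 619, 493 and 513 CPM. Fibroblasts had 63.6, 69.9, 66.9 and 59.9 CPM, so every pericyte library was above every fibroblast library, and the ratio was 10.3 (9.49 to 11.2). The 47 members rich in Dcn and Gsn held 48.5% of the Postn molecules, and the other 406 still had 448 CPM. Smooth muscle cells had 101 CPM, a ratio of 6.61 (4.51 to 10.1), and endothelial cells 60.6. At 1000 UMIs per cell, Postn was found in 35.6% of pericytes, 4.55% of smooth muscle cells and 3.45% of fibroblasts. Fap, a membrane protease, stood at 170, 236, 268 and 307 CPM, 2.46 times (2.14 to 2.81) the fibroblast level, and at 248 CPM in the 406. By contrast Col1a1 had 116 CPM (42.5 in the 406) against 498 in fibroblasts, and Col3a1 446 (294) against 1849. Against smooth muscle cells 7 of 31 genes were called higher, against 8.91% of all genes, and 0 lower. In the 406, 18 of 31 were lower and 2 higher than in fibroblasts. Of 27 compared with smooth muscle cells there, 6 were higher and 1 lower.

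Adhesion genes were called both higher and lower than in fibroblasts, and were mostly not called against smooth muscle cells. Against fibroblasts 11 of 17 were called higher and 5 lower, with 10.3 and 9.29% over all genes. Against smooth muscle cells 1 of 18 was higher and 0 lower, which was near the 8.91 and 2.12% of all genes. In the 406 members low in Dcn and Gsn, 11 of 17 were higher and 6 lower than in fibroblasts. Itga1, the collagen-binding integrin chain, stood at 1023, 734, 1129 and 1277 CPM, 21.8 times the fibroblast level. Itga7, a laminin-binding chain, stood at 198, 147, 209 and 229 CPM against 1.42 in fibroblasts and 183 in smooth muscle cells. Gja4, which encodes the gap junction protein connexin 37, had 298 CPM against 7.13 in fibroblasts.

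Of 28 cytokine and innate immune genes, 10 were called lower in pericytes than in fibroblasts, 3 higher and 15 neither way. Over all genes 9.29% were lower and 10.3% higher, so the share of the list that was higher lay near the background and is given as a description. In the 406 members low in Dcn and Gsn, 14 of 26 were lower and 3 higher. The lower ones included the complement genes C3 (14.9 against 492 CPM) and Serping1 (383 against 1408). The higher ones were Cxcl12, Il1rap and Sele. Cxcl12, a chemokine that retains CXCR4-bearing cells, stood at 420, 217, 594 and 389 CPM, 4.11 times the fibroblast level and under the 1201 CPM of endothelial cells. Sele encodes E-selectin, known as an adhesion molecule of inflamed endothelium. It stood at 38.2, 51.1, 33.5 and 86.9 CPM in pericytes, with 0.329 in fibroblasts and 5.77 in endothelial cells. It was found in 4.94% of thinned pericytes and 0.0523% of fibroblasts, and smooth muscle cells had 1 UMI of it in all (3.75 CPM). The receptor Il1r1, which reads interleukin 1, stood at 148, 128, 159 and 151 CPM. It was 2.18 times (1.33 to 3.77) the smooth muscle level and close to the 130 CPM of fibroblasts. Against smooth muscle cells 5 of 21 genes were called higher (Il1r1, Il6st, Osmr, Sele and Cd74) and 0 lower, against 8.91 and 2.12% of all genes, and 3 of 17 were higher in the 406. These calls were close to the threshold: Il1r1 was lost without library 3 (log2 ratio 0.96), Il6st without library 1 (0.87) or 3 (0.96) and Cd74 without library 4 (0.645). Against fibroblasts Il1rap was lost without library 1 (0.88) or 4 (0.98).

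Interferon response genes were called higher than in smooth muscle cells for 7 of 21 and lower for 0, against 8.91 and 2.12% of all genes. Compared with fibroblasts 1 of 24 was higher (Ifitm1, 293 against 43.2 CPM) and 1 lower (Ifi27l2a, 168 against 2156). Over all genes 10.3% were higher and 9.29% lower than in fibroblasts. In the 406 members low in Dcn and Gsn, 6 of 24 were lower than in fibroblasts. Of the 7, Isg15, Bst2, Gbp7, Psmb9 and H2-D1 pointed the other way when smooth muscle cells were chosen by Myh11 alone, with no limit on immune or endothelial transcripts. Gbp7 was also lost without library 1 (log2 ratio 0.92) or 3 (0.95), and Ifih1 without library 1 (0.99) or 2 (0.81). Early response genes, which are also switched on by tissue digestion, summed to 2457, 3857, 1514 and 1295 CPM by library, against 4451 over all fibroblasts. In the 406 members low in Dcn and Gsn the sums were 1993, 961, 1474 and 1051 CPM, so library 2 was the highest with the 47 others and the lowest without them. Compared with fibroblasts, 1 of 18 early genes was called higher and 3 lower (Dusp1, Klf2 and Klf4), against 10.3 and 9.29% of all genes. The higher one was Hspa1a, lost without library 1 at a log2 ratio of 0.97. Without the 47 members 12 of 18 were lower, Fos, Jun and Egr1 among them, and 1 higher. Of the 12 cell cycle genes 6 had 0 UMIs, among them Mki67 and Top2a, which allows up to 2.80 CPM for each.

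**Figure D3:**
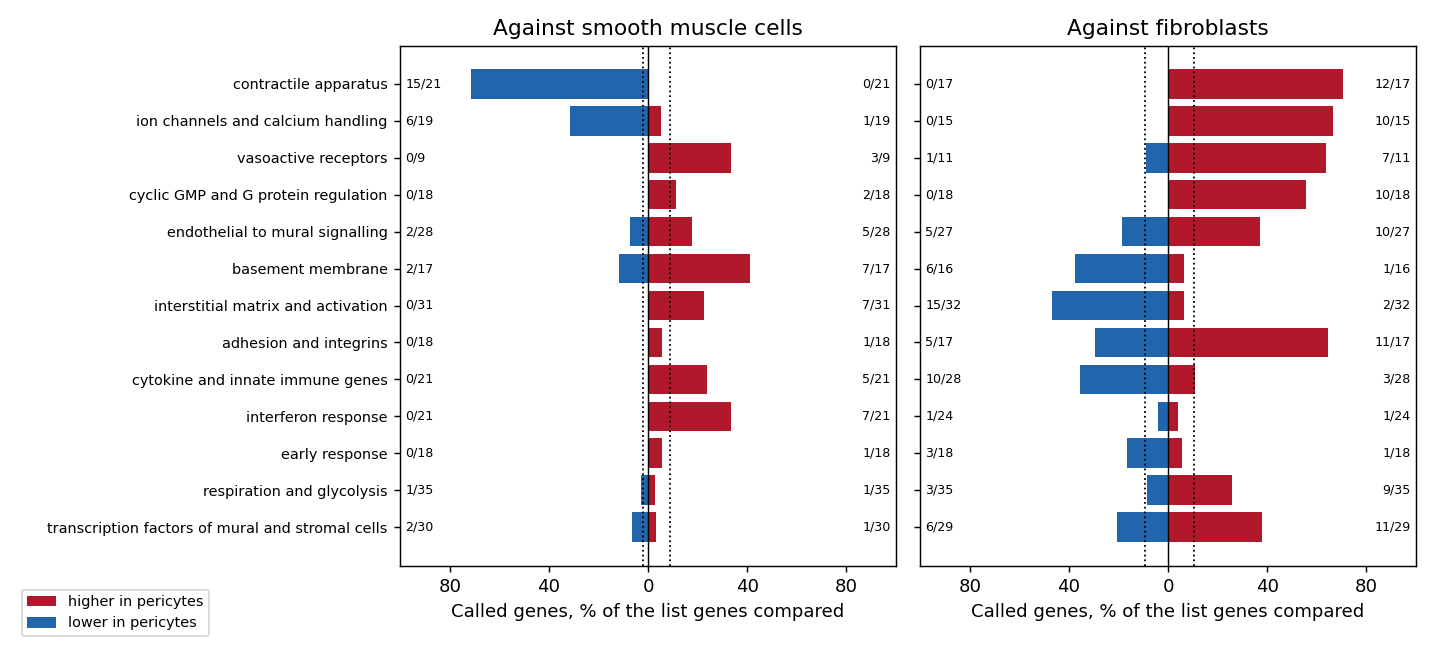
Share of the compared genes of each list that were called higher (right, red) or lower (left, blue) in pericytes than in smooth muscle cells or fibroblasts, in percent of the list, with counts at the edges. Dotted lines give the shares over all genes compared. Contractile genes were lower than in smooth muscle cells for 15 of 21 and higher than in fibroblasts for 12 of 17.

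The pericytes carried high shares of 3 variants of mitochondrial proteins. All 3 are on the list of pericyte markers, which was chosen with earlier results of these data known. Their shares therefore describe the members and are no test. The genes of these variants, known from low oxygen or from particular tissues, were set against their common counterparts, as the share of the pair's molecules that the variant took, which does not depend on depth. Ndufa4l2, the variant of the respiratory subunit Ndufa4, took 94.4, 89.8, 99.0 and 95.3% of the pair in pericytes. The share over all libraries was 94.7% (exact interval 93.4 to 95.7%), against 77.2% (72.3 to 81.7%) in smooth muscle cells, 31.3% in fibroblasts and 2.24% in endothelial cells. In library 2, with 6 smooth muscle cells, the share in smooth muscle cells was 100% and above that of the pericytes. Among the 4 classes, pericytes had the highest and endothelial cells the lowest share over all libraries.

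Cox4i2, the variant of the cytochrome oxidase subunit Cox4i1, took 58.9, 53.9, 65.6 and 61.7% in pericytes. The share was 59.6% (57.2 to 61.9%) over all pericytes, 40.0% (35.4 to 44.7%) in smooth muscle cells, 2.06% in fibroblasts and 1.496% in endothelial cells. In libraries 2 and 3 smooth muscle cells reached 59.1 and 56.0%, in 6 cells each, and overlapped the pericytes. Higd1b, set against its relative Higd1a, took 89.6% (87.0 to 91.9%) in pericytes, 84.7% (77.8 to 90.2%) in smooth muscle cells, 0.929% in fibroblasts and 0.591% in endothelial cells. Smooth muscle cells of library 3 had 100%, above the 95.5% of the pericytes there. The variants Cox7a1, Cox6a2 and Hk2 showed no such share. In pericytes Cox7a1 took 2.33% against Cox7a2, and Cox6a2 took 0.717% against Cox6a1. The hexokinase Hk2 took 2.22% against Hk1, below its 35.6% in fibroblasts. Slc2a3 took 60.7% against Slc2a1 in pericytes, on 17 and 11 UMIs. The interval of this share (40.6 to 78.5%) held the 40.9% of fibroblasts and the 44.9% of endothelial cells. Smooth muscle cells had 1 and 4 UMIs of this pair, so no order is read from it. In the 406 members low in Dcn and Gsn the shares were 98.9, 65.0 and 92.6% for Ndufa4l2, Cox4i2 and Higd1b. Over the wider list of respiration and glycolysis genes, 1 of 35 was called higher and 1 lower than in smooth muscle cells, against 8.91 and 2.12% of all genes. Egln3 was the higher one, and the lower one was Cox6c, lost without library 1 at a log2 ratio of -0.98. Compared with fibroblasts 9 of 35 were higher and 3 lower, against 10.3 and 9.29% of all genes. Among the higher ones were Epas1, the hypoxia-inducible factor HIF-2α, at 339 against 57.7 CPM, and the lactate dehydrogenase gene Ldhb, at 200 against 40.2.

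**Figure D4:**
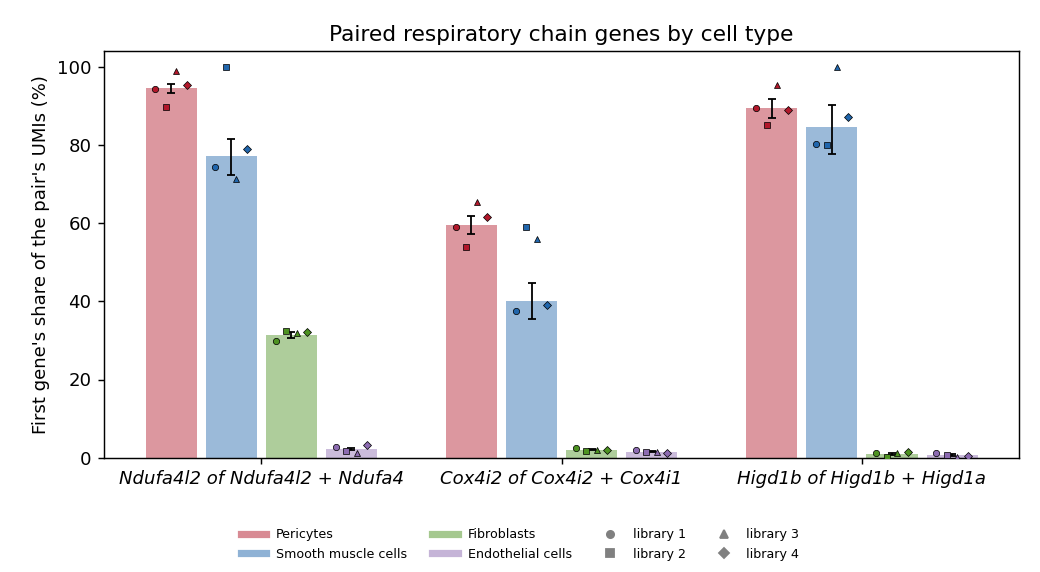
Share of the molecules of each isoform pair that came from the first gene named (percent), in the 4 cell classes, with exact 95% intervals over all libraries and small symbols for libraries. Ndufa4l2 took 94.7% of its pair in pericytes and 2.24% in endothelial cells.

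Transcription factors gave 11 of 29 genes higher and 6 lower than in fibroblasts, against 10.3 and 9.29% of all genes. Against smooth muscle cells 1 of 30 was higher and 2 lower, against 8.91 and 2.12% of all genes, and 4 of 26 were higher and 1 lower in the 406. Tbx20, a T-box factor of heart development, was the higher one, at 390 against 86.1 CPM in smooth muscle cells, and had 317 CPM in the 406 members low in Dcn and Gsn. Tbx2, also a T-box factor, was lower, at 112 against 341 CPM. Nr2f2, known for its role in venous identity, had 452 CPM, 8.11 times the fibroblast level, and 442 CPM in smooth muscle cells. Foxs1 had 129 CPM, 5.32 times the fibroblast level.

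Beyond the lists, genes were named by the size of their ratios. Against all other cells kept from these libraries the leading genes included Lin7a (271-fold), Higd1b (201-fold), Pde8b (172-fold) and Cspg4 (155-fold). Mdga2, an adhesion protein that binds neuroligins, had 510 CPM against 44.9 in smooth muscle cells and 2.07 in fibroblasts. Pde8b, a phosphodiesterase of cyclic AMP, had 534 CPM against 97.4 and 1.82. Of the 12 leading genes against smooth muscle cells, Lsamp (455 against 18.7 CPM), Angptl2 (332 against 33.7) and Pde7b (253 against 22.5) were as high in the 406 members. Lum and Dkk3 were not, with 304 and 162 CPM over all pericytes but 21.8 and 19.4 in the 406, where they were no longer called. Ptn (108 and 25.5 CPM) and Igf1 (135 and 42.5) were also lower in the 406 but were called there, and Lrrk1 (136 and 109) was not. The genes with the lowest ratios against fibroblasts included C3, the progenitor marker Pi16 (40.2 against 1073 CPM) and Scara5.

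Clustering of the 453 members gave 5 groups. Cluster 1 held 228 cells (50.3%) and cluster 2 held 168 (37.1%), and both came from every library: 130, 21, 21 and 56 cells, and 80, 20, 22 and 46 cells. They carried 2789 and 1696 CPM of Kcnj8. Cluster 1 had 1141 CPM of Fabp5, a fatty acid carrier, against 368 in the rest, and led also in Tcf15. Cluster 2 led in Csmd1, Lrmda, Adgrl3 and Ror1, with 141 CPM of Csmd1 against 15.4 in the rest. The cells of cluster 2 had 28.9% of their UMIs from genes longer than 100 kb, against 19.6% in cluster 1, and 2.97% against 4.89% from ribosomal protein genes. The part of this RNA composition in the split was not tested. Since clusters were made from these same genes, the leading genes describe them and are no test.

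Cluster 3 held 24 cells, 8, 4, 7 and 5 by library. It carried 1372 CPM of Acta2 against 32.9 in the rest, 1268 of Tagln against 67.8, and 155 of Myocd against 0. Rgs5 stood at 11078 and Notch3 at 2174 CPM, and Kcnj8 at 311, below the 2789 in cluster 1. Acta2, Tagln, Myocd and Mustn1, all on the list of smooth muscle markers, were among its 10 leading genes, and Rgs5 and Notch3 are also high in smooth muscle cells. Acta2 was still under the 7843 CPM of smooth muscle cells. Of the same list Cnn1, Actg2 and Pln had 0 CPM, and Lmod1 had 129 against 629 in smooth muscle cells. Among pericyte markers outside the rule, Colec11 (595 against 142 CPM) and Steap4 (699 against 213) were above smooth muscle cells. Rgs4 (311 against 419) and Mcam (77.6 against 169) were below them. The cluster thus carried markers of both mural classes and was left unnamed. Its cells passed the limit of 1 Myh11 UMI. These 24 cells held 60.9% of the Acta2 and 41.2% of the Tagln molecules of the pericytes.

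Clusters 4 and 5, with 18 and 15 cells, went against the label and were also left unnamed. All 33 of them carried at least 5 Dcn and Gsn UMIs. Cluster 4 led in Erbb4, a receptor tyrosine kinase, at 3255 CPM against 1.06 in the rest, and in Wif1, an inhibitor of Wnt signalling, at 1101. It had 2575 CPM of Postn, 14057 of Dcn, 583 of Rgs5 and 0 UMIs of Vtn. Cluster 5 led in Clec3b, Smoc2, Ly6a, Inmt and Igfbp6, with 18144 CPM of Gsn. Their median UMI counts were 6794.5 and 4629, against 2005 in cluster 1. Every listed pericyte marker outside the rule stood higher in clusters 1 and 2 than in clusters 4 and 5. Notch3 had 855 and 1242 CPM in clusters 1 and 2, against 8.10 and 151 in clusters 4 and 5. The label was kept for clusters 1 and 2 as a description and not as a test, since all members were chosen on the rule genes.

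**Figure D5:**
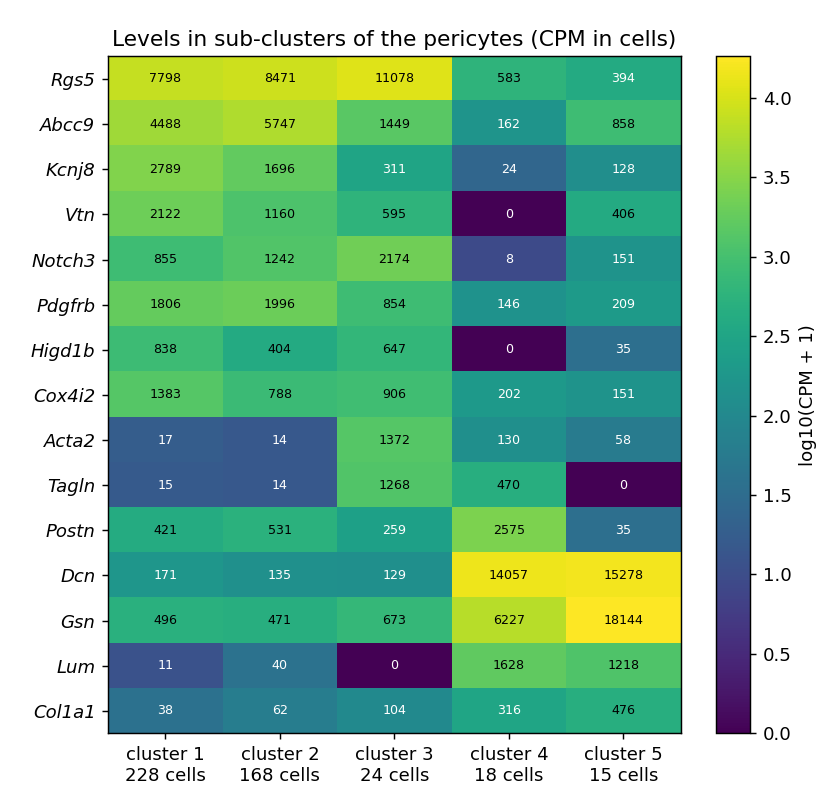
Levels of chosen genes in the 5 sub-clusters of the pericytes, as CPM in each cell of the grid and as log10(CPM + 1) in colour. Cluster 3 carried 1372 CPM of Acta2, and clusters 4 and 5 carried 14057 and 15278 CPM of Dcn.

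Levels varied between libraries for 607 of the 2759 genes at 100 CPM or more in at least 1 library, counted where the exact intervals of the highest and lowest library did not overlap. Without the 47 members rich in Dcn and Gsn the count was 257 of 2744. Xist had the largest ratio with and without those members. Next over all members were Erbb4, at 500, 645, 0 and 64.1 CPM, and Mfap5, a microfibril gene of fibroblasts, at 109, 421, 0 and 18.3. Erbb4 lay mostly in cluster 4 (3255 CPM against 1.06 in the rest), with 12, 4, 0 and 2 cells by library. Mfap5 led in cluster 5 (1032 against 44.7), with 7, 5, 1 and 2 cells. Both clusters went against the label. Xist, a transcript of female cells, stood at 669, 843, 0 and 810 CPM. The Y-linked genes Uty and Ddx3y stood at 134 and 109 CPM in library 3 and had 0 UMIs in the pericytes of libraries 1, 2 and 4. Fibroblasts had 646, 699, 0.520 and 631 CPM of Xist. Library 3 thus read as male and libraries 1, 2 and 4 as female, so library 3 also differed from the others in sex. Among the 406 other members, the VEGF receptor Kdr stood at 11.99, 0, 17.3 and 111 CPM and the clock-controlled gene Dbp at 33.6, 139, 52.0 and 10.1. Library 4 also had the highest sum of endothelial markers, at 2132 CPM, and whether this has a part in the Kdr value was not tested. Without sample labels these differences have no replicate check.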

How the data were processed

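Single-cell RNA sequencing of cardiac interstitial cells (2 control and 2 stroke samples) was deposited as 1 matrix of 32286 features by 39731 barcodes. The deposited values are raw counts of UMIs, made with Cell Ranger 7.1.0 on mm10 per the submitters' processing notes. The sources used here do not say whether intronic reads were counted. No label ties the 4 barcode suffixes to samples, so the table counts as 1 sample: no stroke comparison, p-value or count model was run.

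Cells were kept at 500 UMIs, 250 genes and 15% mitochondrial UMIs, and classes were set by marker UMIs. Counts were summed per class and library and scaled to CPM. Ratio intervals (exact conditional binomial), shares (Clopper-Pearson) and levels (Poisson) are at 95% and cover counting error only. Doublets were marked with Scrublet through scanpy 1.11.5 and kept. In library 3 its automatic threshold marked 0 cells, and the middle of the thresholds found in libraries 1, 2 and 4 took its place. Sub-clusters came from Leiden clustering (resolution 0.5, 2000 variable genes, 20 components, 15 neighbours). The calling steps were tested on simulated data. Python 3.11.15, numpy 2.4.6, scipy 1.17.1, R 4.3.3 and edgeR 4.0.16 (normalization factors only) were used.

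Beyond the 25 gene lists, genes were named by rule: the 12 highest ratios per comparison at 100 CPM in pericytes, the 8 lowest at 100 CPM in the other class, the 15 highest over all other cells, the 8 most variable between libraries and the 5 leading genes of each sub-cluster. Cog7, Gm13889, Hist1h1e and similar leading genes of unsure role are left out, and some genes that count in the lists are not reported here. The members and lists were chosen with earlier results of these data known. Alternatives covered the marker threshold, Myh11, comparison classes, added CPM, filter, scaling, thinning, doublets, quality limits and each library left out. Members low in Dcn and Gsn, the interval in the call, and leaving out libraries 2 and 3 were added after seeing the data.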

Additional observations from a re-analysis of the deposited data

How the results depend on the processing

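No paired analysis was possible because no source ties the library numbers of the barcodes to the samples or their replicate numbers. Cell classes were compared within each library by direction only, with no test. Counts against fibroblasts (817 genes higher and 734 lower, of them 88 and 56 in the functional lists) stayed within 1.5 times under all 20 alternatives. Those against smooth muscle cells did not, and the cause was not tested beyond the settings themselves. Leaving out libraries also weakened the rule, since the same direction was then asked only of the libraries that remained. From 701 genes higher, the count was 456 with smooth muscle cells by their marker rule alone, 382 with 20 CPM added, 333 with a filter at 50 CPM and 1253 without libraries 2 and 3, and 919 to 1134 with 1 library left out. From 167 genes lower, it was 89 in cells thinned to 1000 UMIs, 349 with smooth muscle cells by their marker rule alone, 598 without libraries 2 and 3, and 194 to 333 with 1 library left out. For list genes, 43 higher became 27 by the marker rule alone and 76 without libraries 2 and 3, with 49 to 62 when 1 library was left out, and 28 lower became 17 in thinned cells, 61 without libraries 2 and 3, and 29 to 45. The share of pericytes, 1.16%, was 1.05% with no Myh11 UMI allowed, 1.04% without members rich in Dcn and Gsn, 1.72% without libraries 2 and 3, and 0.743 to 1.37% with 1 library left out.

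Of 256 calls on named genes, 96 were not called in at least 1 alternative. Those of 11 genes changed sign. With smooth muscle cells by their marker rule alone the log2 ratio was -0.20 for Fn1, -1.05 for Eng, -0.79 for Itga6, -0.41 for Gbp7, -0.39 for Isg15, -0.61 for Bst2, -0.049 for Il6st, -0.053 for Acvrl1, -0.59 for Psmb9 and -0.45 for H2-D1. The Dkk3 ratio to fibroblasts was -0.28 at a marker sum of 6 and -1.23 without members rich in Dcn and Gsn. Depth sets a floor: 1 UMI was worth 0.934 CPM in pericytes and 3.75 CPM in smooth muscle cells, where genes under 20 CPM rest on few molecules.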
